A study of Homo sapiens with 2 samples.

Results

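The genes described here make cholesterol and fatty acids or control their making, in L-540, an established Hodgkin lymphoma cell line, with and without vorinostat. They were chosen by symbol: 35 genes were listed, 16 enzymes of cholesterol synthesis, 7 genes of sterol sensing and transport and 12 genes of fatty acid synthesis, elongation and activation. Of these, 31 had at least 1 of 61 probe sets that carried their symbol alone, among 11963 genes on the array with such a probe set. The study compared 1 culture of L-540 treated with vorinostat, a hydroxamate inhibitor of histone deacetylases, with 1 culture left untreated, on 1 Affymetrix HG_U133A array each. Dose and time of treatment were not given in the labels, and both cultures were the same cell line grown under standard conditions. With 1 array a group there were no replicates, so no test was possible, no value below has an error over cultures, and the 2-fold rule used for counting is a rule of size. Values are MAS5 signals, linear intensities in arbitrary units, and ratios are vorinostat over untreated.

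Cells make cholesterol from acetyl-CoA through mevalonate, isoprenoid diphosphates and squalene, and fatty acids from the same acetyl-CoA through malonyl-CoA. The transcription factors SREBP-1 and SREBP-2, encoded by SREBF1 and SREBF2, switch on the enzymes of these pathways when sterols in the endoplasmic reticulum are low. They are carried to the Golgi by SCAP for cleavage, and the INSIG proteins hold SCAP back when sterols are plentiful. Rapidly dividing lymphoid cells use these lipids for new membranes.

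Both arrays had a trimmed mean signal of 500.2, and the median signal over probe sets was 115 on the vorinostat and 126 on the untreated array. Signals under a floor of 68.9 units, the 40th percentile of both arrays together, were set to the floor, which left 8277 genes measured on at least 1 array. Of 7 marker genes of Hodgkin cells, 6 were measured, all but CCL17, and the deposited signals of all 7 summed to 22705 on the vorinostat and 32429 on the untreated array. The measured ones differed in direction: TNFRSF8 (3.34-fold) and BATF3 (3.40-fold) were lower in treated cells, as were FSCN1 and TRAF1 by less than 2-fold, whereas IRF4 (1.22-fold) and GATA3 (1.33-fold) were higher. All 4 adipocyte markers, including ADIPOQ, FABP4 and LEP, lay under the floor on both arrays, as did 2 of 4 hepatocyte markers, ALB among them, and 4 of 7 monocyte and granulocyte markers, CD14 and LYZ among them. Above the floor on both arrays were SERPINA1 of hepatocytes (103 in treated and 198 in untreated cells), and CSF1R (149 and 207) and ITGAM (76.5 and 129) of monocytes and granulocytes. APOA1 and FCGR3B were above it on 1 array. The summed deposited signals, over all listed genes, were 78.9 and 86.2 for adipocyte, 220 and 283 for hepatocyte and 388 and 506 for monocyte and granulocyte markers, vorinostat and untreated. In bulk RNA, fewer cells of a type and less RNA per cell cannot be told apart. The part of these marker differences in the results below was not tested.

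Sequences upstream of the 5 genes past 2-fold that had a window, and of INSIG1 and SREBF2, the partner and the cargo of SCAP, are shown because genes of the sterol pathway are known to share SREBP, NF-Y and Sp1 sites near their starts. Each line holds the 250 bases before an annotated transcription start, 5′ to 3′ on the gene's strand, from RefSeq (GRCh38.p14). Capitals mark matches on either strand to the sterol regulatory element core (TCACNCCAC), the E-box (CACGTG), the CCAAT box of NF-Y and the GC box of Sp1 (GGGCGG), and GC box matches can overlap each other. Of the 2 annotated starts of HMGCS1 the upstream one is shown.
HMGCS1 (chr5:43313413-43313662, minus strand): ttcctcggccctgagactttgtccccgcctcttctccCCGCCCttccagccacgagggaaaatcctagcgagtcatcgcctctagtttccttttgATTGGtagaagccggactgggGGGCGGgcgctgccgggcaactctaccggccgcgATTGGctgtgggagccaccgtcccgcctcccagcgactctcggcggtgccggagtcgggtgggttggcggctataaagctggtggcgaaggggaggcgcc
LSS (chr21:46228775-46229024, minus strand): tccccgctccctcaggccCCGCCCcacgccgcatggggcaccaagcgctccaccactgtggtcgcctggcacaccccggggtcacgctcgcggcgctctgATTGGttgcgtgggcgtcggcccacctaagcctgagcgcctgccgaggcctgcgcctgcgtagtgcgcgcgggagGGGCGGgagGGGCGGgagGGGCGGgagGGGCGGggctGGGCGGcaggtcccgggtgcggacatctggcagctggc
INSIG1 (chr7:155297628-155297877, plus strand): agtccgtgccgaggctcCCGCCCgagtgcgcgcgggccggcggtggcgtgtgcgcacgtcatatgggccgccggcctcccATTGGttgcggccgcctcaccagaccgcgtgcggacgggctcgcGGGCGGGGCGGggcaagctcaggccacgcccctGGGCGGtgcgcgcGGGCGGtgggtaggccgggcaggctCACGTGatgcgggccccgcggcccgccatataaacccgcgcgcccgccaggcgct
SCAP (chr3:47475942-47476191, minus strand): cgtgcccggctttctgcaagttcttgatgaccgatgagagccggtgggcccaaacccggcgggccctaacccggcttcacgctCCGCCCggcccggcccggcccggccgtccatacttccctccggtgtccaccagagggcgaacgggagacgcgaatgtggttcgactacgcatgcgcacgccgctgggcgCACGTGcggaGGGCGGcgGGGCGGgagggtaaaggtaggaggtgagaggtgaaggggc
SREBF2 (chr22:41832855-41833104, plus strand): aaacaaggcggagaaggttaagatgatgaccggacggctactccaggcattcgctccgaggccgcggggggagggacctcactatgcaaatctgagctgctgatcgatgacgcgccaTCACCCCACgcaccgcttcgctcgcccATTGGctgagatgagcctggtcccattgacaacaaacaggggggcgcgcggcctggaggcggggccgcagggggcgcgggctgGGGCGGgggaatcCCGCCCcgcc
ELOVL4 (chr6:79947554-79947803, minus strand): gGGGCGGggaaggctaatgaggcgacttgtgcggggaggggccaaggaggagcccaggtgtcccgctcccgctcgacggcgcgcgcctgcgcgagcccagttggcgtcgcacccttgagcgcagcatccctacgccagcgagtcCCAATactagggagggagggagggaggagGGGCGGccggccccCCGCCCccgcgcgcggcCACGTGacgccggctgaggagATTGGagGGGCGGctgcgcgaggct
OSBPL10 (chr3:31981263-31981512, minus strand): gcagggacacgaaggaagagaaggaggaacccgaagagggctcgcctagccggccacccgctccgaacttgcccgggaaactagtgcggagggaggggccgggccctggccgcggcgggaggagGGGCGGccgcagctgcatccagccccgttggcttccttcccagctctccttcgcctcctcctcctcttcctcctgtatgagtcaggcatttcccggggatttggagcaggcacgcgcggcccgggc

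RefSeq windows were found for 32 of the 35 genes, all but FASN, FDFT1 and SQLE, in 46 windows since some genes have several starts. The CCAAT box was present in 14 of 19 windows of cholesterol synthesis genes, 3 of 8 windows of sterol sensing and transport genes and 9 of 19 windows of fatty acid genes. Among 35116 windows of all genes 32.0% held it, and 32.7% of those of protein-coding genes. By gene, 12 of 14 cholesterol synthesis genes held it, HMGCS1, LSS and IDI1 with higher signals in treated cells as well as FDPS, DHCR7 and HSD17B7 with almost equal ones. The E-box was found in 6 of 46 windows, against 6.34% of all windows and 7.37% of protein-coding ones, and lay upstream of INSIG1, SCAP, ELOVL4, ELOVL5 and SC5D. The sterol regulatory element core was found in 2 of 46 windows, against 0.883% of all windows, upstream of SREBF2, 133 bases before its start, and of 1 of the 5 annotated starts of ACSL1. GC boxes were found in 38 of 46 windows, against 42.6% of all windows and 53.7% of protein-coding ones. The median GC content was 67.8% in these windows and 58% in all windows. No match in the window of a gene says only that these letters are absent there.

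In vorinostat-treated cells 5 of the 29 measured genes were at least 2-fold higher, 1 was at least 2-fold lower and 23 lay within 2-fold. The 5 were HMGCS1, LSS and SQLE of cholesterol synthesis, SCAP of sterol sensing and ELOVL4 of fatty acid elongation, and the lower one was OSBPL10, a lipid transfer gene. Over all 8277 measured genes the share was 3.77% for higher and 5.12% for lower ones, so 5 of 29 is a larger share than the background for higher genes, and 1 of 29 for lower genes is close to it. With the arrays scaled to equal medians, 6 of 29 were higher and 1 lower, beside 459 and 321 of all measured genes. At 1.5-fold, 8 of the 29 were higher and 2 lower, against 12.7% and 15.5% of all measured genes. The median log2 ratio of the 29 was 0.28, beside -0.04 over all measured genes. Counted by probe set, 8 of 54 measured ones were at least 2-fold higher and 1 was at least 2-fold lower, against 3.65% and 5.47% of all 14194 measured probe sets. Just inside the 2-fold rule lay SCAP and SQLE (log2 ratios of 1.11 and 1.15), and just outside it IDI1 and INSIG1 (0.95 and 0.86). The membership was drawn up with earlier results of these arrays known, and no test bears on these shares.

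**Figure D1:**
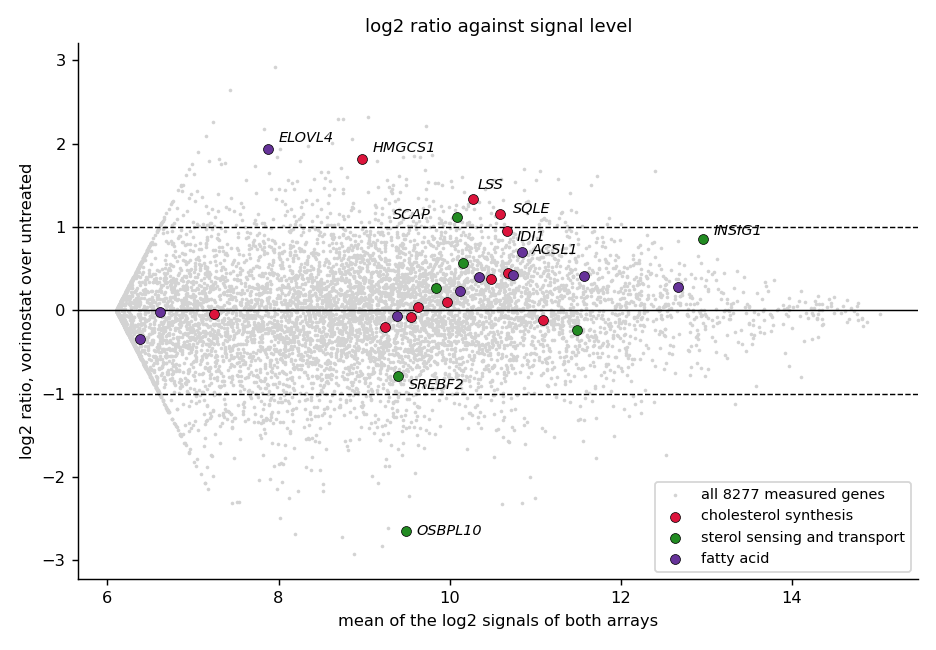
Each point is a measured gene, placed by the mean of its log2 signals on both arrays (horizontal axis) and its log2 ratio, vorinostat over untreated (vertical axis); dashed lines mark 2-fold. ELOVL4, HMGCS1, LSS, SQLE and SCAP lie above the upper line, OSBPL10 lies far below the lower one at -2.65, and the straight edges at the left come from the floor.

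The share of genes past 2-fold depended on signal level. With the measured genes cut into 4 equal bins of mean signal, 4.88% of bin 3 and 3.09% of bin 4, the brightest, were at least 2-fold higher. Of the 25 lipid genes in these bins, 4 were. ELOVL4 lay in bin 2, where 4.88% of genes passed the same rule. A further guide to technical spread comes from genes with at least 2 probe sets above the floor on both arrays. Over 2428 such genes, the log2 ratios of the 2 brightest probe sets differed by a median of 0.25, went the same way in 78.9% and lay more than 1 apart in 2.76%. This spread concerns probe sets on the same arrays and says nothing of differences between cultures.

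Cholesterol synthesis was the role with most of the higher genes: 3 of 12 measured enzymes were at least 2-fold higher, 0 lower and 9 within 2-fold, with a median log2 ratio of 0.24. A lower floor, set at the 25th percentile, left 14 enzymes of this role measured and made its median log2 ratio 0.07. MVD and SC5D, then also measured, had lower signals in treated cells. Taking the median of each gene's probe sets made the median of the role 0.10. HMGCS1, which condenses acetyl-CoA with acetoacetyl-CoA to HMG-CoA, had a signal of 945 in vorinostat-treated and 268 in untreated cells (3.53-fold higher). Its second probe set gave 593 in treated and 239 in untreated cells. HMGCS1 ranked 21 of 8277 from the highest ratio, and both probe sets were past 2-fold.

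Of the steps from mevalonate to isopentenyl diphosphate, both kinases lay close to a ratio of 1 and the decarboxylase was not measured. MVK, mevalonate kinase, had signals of 802 in treated and 782 in untreated cells, its second probe set had a log2 ratio of -0.09, and the last, with the untreated signal under the floor, gave a bound of at least 0.17. PMVK, phosphomevalonate kinase, had 567 in treated and 650 in untreated cells (1.15-fold lower). MVD, the decarboxylase that follows, was under the floor on both arrays, at 43.9 in treated and 68.2 in untreated cells.

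IDI1, the isomerase that makes dimethylallyl diphosphate, had signals of 2259 in treated and 1169 in untreated cells on its brightest probe set (1.93-fold higher), and 2341 in treated and 967 in untreated cells on the other. Both went the same way, their median log2 ratio was 1.11, and the brightest passed 2-fold (1.08) when the arrays were scaled to equal medians. Both carry the suffix of probe sets that can hybridise to related sequences. FDPS, which builds farnesyl diphosphate, had 2097 in treated and 2273 in untreated cells. It was 1.08-fold lower as deposited and changed sign when the arrays were scaled to equal medians. FDFT1, squalene synthase, was not analysed here.

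Both enzymes that turn squalene into the first sterol were past 2-fold on their brightest probe sets. SQLE, squalene epoxidase, had signals of 2303 in treated and 1036 in untreated cells (2.22-fold higher). Its other probe sets gave 445 and 223 in treated cells, against 285 and 170 in untreated cells, so all 3 were higher in treated cells while only the brightest passed 2-fold, and the median log2 ratio over them was 0.64. LSS, lanosterol synthase, had 1973 in treated and 781 in untreated cells (2.53-fold higher). Its second probe set gave 156 in treated and 79.2 in untreated cells (1.96-fold higher). The third, at 63.4 in treated and 79.1 in untreated cells, lay at the edge of the floor and went the other way, as a bound of at least 1.15-fold lower. The median log2 ratio over the 3 was 0.97.

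Among the listed enzymes, the measured ones of the later steps, which trim and rearrange lanosterol, lay within 2-fold. TM7SF2, a sterol reductase given below with the other sterol synthesis genes, was 2.79-fold higher. MSMO1, which oxidises the methyl groups to be removed, had 1633 in treated and 1253 in untreated cells (1.30-fold higher). EBP, a sterol isomerase, had 1910 in treated and 1404 in untreated cells on its brightest probe set, but 315 in treated and 422 in untreated cells on its second, and its median log2 ratio was 0.04. NSDHL, HSD17B7 and DHCR7, which remove a carboxyl group, reduce a keto group and carry out the last reduction, had log2 ratios of -0.04, -0.08 and 0.10. The signs for NSDHL and HSD17B7 turned under another scaling. The second NSDHL probe set, at 90.1 in treated and 81.1 in untreated cells, went the other way from its brightest. SC5D, a sterol desaturase, was under the floor on both arrays with both probe sets, at 12.4 and 28.7 in treated against 55.3 and 47.2 in untreated cells. CYP51A1, lanosterol demethylase, has 2 probe sets that also carry the symbol of another gene, and no value was taken from them.

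**Figure D2:**
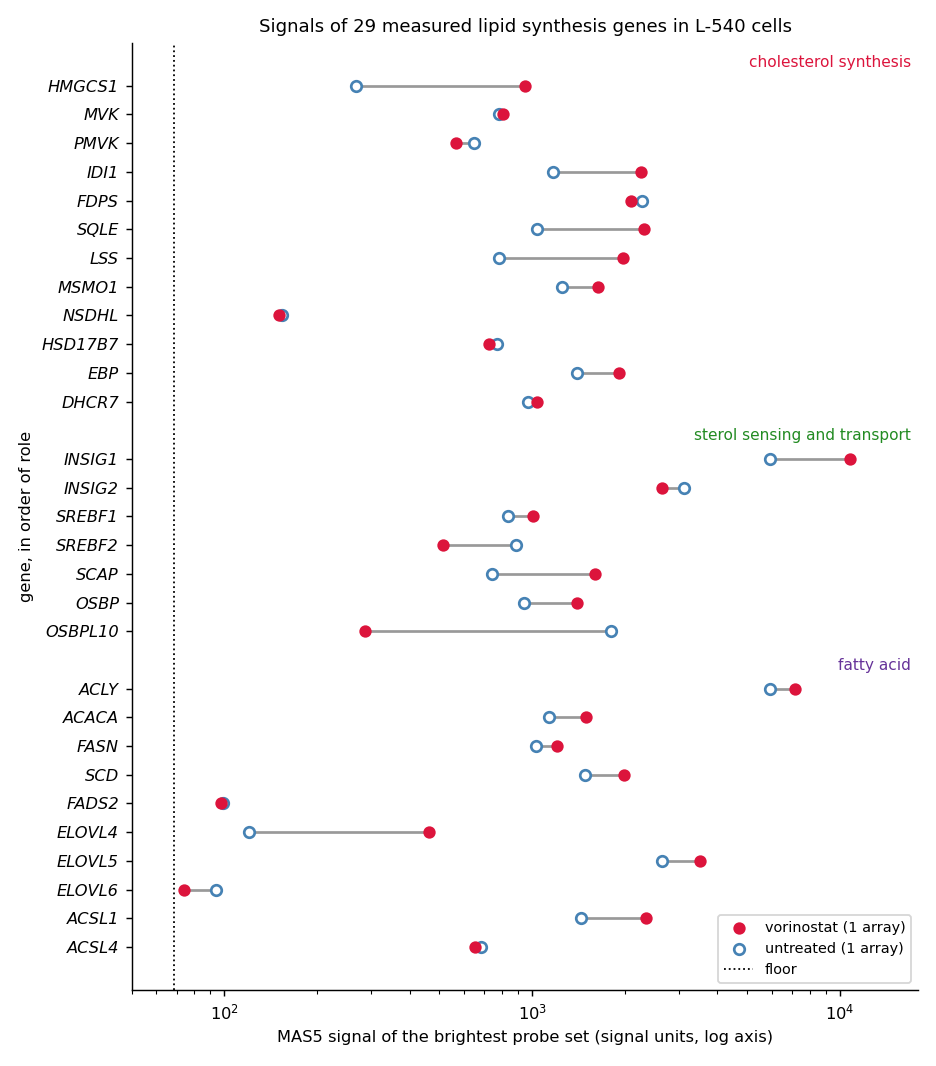
Filled circles give the signal of the brightest probe set on the vorinostat array and open circles that on the untreated array, on a log axis in signal units, for the 29 measured genes in order of role. HMGCS1, ELOVL4 and OSBPL10 have the longest connecting lines, and signals of different genes come from different probes and cannot be set against each other.

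Sterol sensing and transport held differences in both directions. Of 7 measured genes, 1 was at least 2-fold higher, 1 at least 2-fold lower and 5 lay within 2-fold, beside 3.77% higher and 5.12% lower of all measured genes. The median log2 ratio was 0.26, and 0.01 without shared-sequence probe sets. SCAP had signals of 1606 in treated and 742 in untreated cells (2.17-fold higher) on its single probe set. It stayed past 2-fold under each other scaling and with a constant added in place of the floor (log2 ratios of 1.08 to 1.24). The other floors and the probe set settings could not change its ratio, since its single probe set was bright and without the shared-sequence suffix. SREBF2, the gene of the factor that SCAP carries and that chiefly serves cholesterol synthesis, had 515 in treated and 889 in untreated cells (1.73-fold lower). Its other probe set gave 506 in treated and 768 in untreated cells, also lower. SREBF1, whose product serves fatty acid synthesis more, had 1005 in treated and 837 in untreated cells (a log2 ratio of 0.26) on a single probe set.

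INSIG1, which retains SCAP and is itself an SREBP target, had signals of 10798 in treated and 5948 in untreated cells (1.82-fold higher). Its other 2 probe sets gave 6394 and 6234 in treated cells, against 3057 and 3896 in untreated cells. All 3 were higher in treated cells, with log2 ratios between 0.68 and 1.06, around the 2-fold line. INSIG2, the related retention protein that is not known to depend on SREBP in the same way, had 2638 in treated and 3110 in untreated cells (1.18-fold lower). The pair thus lay on different sides of 1 on these arrays.

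OSBP, which exchanges cholesterol for a phosphoinositide between endoplasmic reticulum and Golgi, had signals of 1395 in treated and 941 in untreated cells (1.48-fold higher), and 1121 in treated and 932 in untreated cells on its second probe set. OSBPL10, a lipid transfer protein of the same family, had 287 in treated and 1803 in untreated cells (6.28-fold lower), rank 5 of 8277 from the lowest ratio. The value rests on 1 probe set whose suffix marks possibly shared sequence. A second OSBPL10 probe set, at 67.4 in treated and 81.3 in untreated cells, gave a bound of at least 1.18-fold lower, and the remaining one was under the floor on both arrays. Of 7 other measured genes of the OSBP family, 0 passed 2-fold in either direction and their median log2 ratio was -0.06. OSBPL11 (1.76-fold), OSBPL9 (1.61-fold) and OSBPL8 (1.47-fold), further members that bind or move lipids, were higher in treated cells. The OSBPL11 value comes from a probe set whose suffix marks possibly shared sequence.

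**Figure D3:**
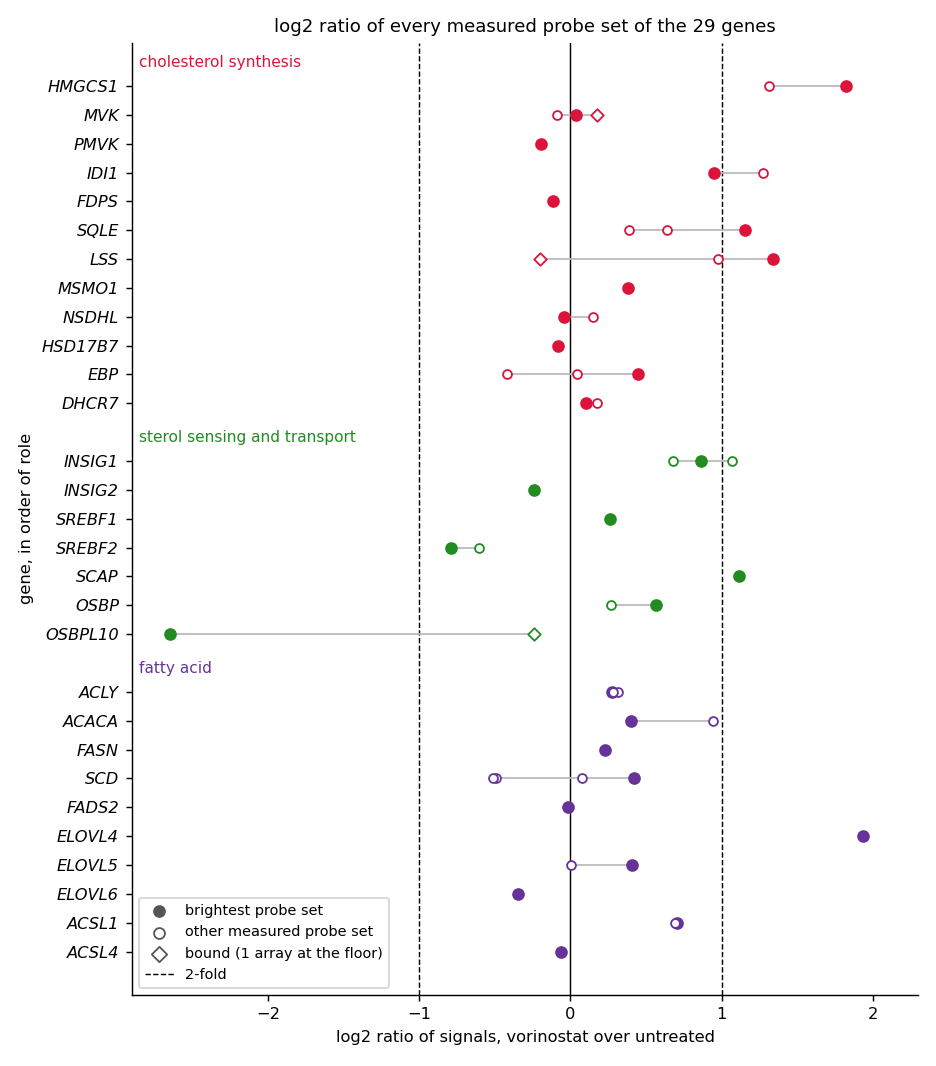
Every measured probe set of the 29 genes is placed by its log2 ratio, vorinostat over untreated, with the brightest probe set filled, the others open and bounds as diamonds. The probe sets of HMGCS1, IDI1, SQLE and INSIG1 all lie right of 0. Those of MVK, LSS, NSDHL, EBP and SCD lie on both sides, and the 2 OSBPL10 values lie at -2.65 and -0.24.

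Among the fatty acid genes 1 of 10 measured ones was at least 2-fold higher, 0 lower and 9 within 2-fold, with a median log2 ratio of 0.34. The shares of all measured genes were 3.77% higher and 5.12% lower. ELOVL4, which elongates very long chain fatty acids and is best known from retina, skin and brain, had signals of 461 in treated and 121 in untreated cells (3.82-fold higher) on its single probe set, rank 13 of 8277 from the highest ratio. With the floor raised to the 60th percentile, above its untreated signal, its log2 ratio was bounded at 1.01. The other elongases differed less. ELOVL5, which acts on polyunsaturated chains, had 3519 in treated and 2649 in untreated cells (1.33-fold higher), and 164 in treated and 163 in untreated cells on its second probe set. ELOVL6, which elongates palmitate, was near the floor at 73.9 in treated and 93.8 in untreated cells (1.27-fold lower).

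The enzymes that build palmitate were slightly higher in treated cells. ACLY, which makes cytosolic acetyl-CoA from citrate, had 7172 in treated and 5924 in untreated cells, and its 3 probe sets had log2 ratios between 0.28 and 0.31. ACACA, the carboxylase that makes malonyl-CoA, had 1497 in treated and 1136 in untreated cells on its brightest probe set (1.32-fold higher) and 404 in treated and 210 in untreated cells on the other (1.92-fold higher). FASN, fatty acid synthase, had 1203 in treated and 1028 in untreated cells (1.17-fold higher). Ratios as high as those of ACLY, ACACA and FASN were found in 27.2%, 20.4% and 30.5% of all measured genes. Each of these 3 genes was above 0 in log2 ratio under each of the 8 other settings that gave a value, and each lay within 2-fold. Another floor could not change the ratios of genes this bright.

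The probe sets of SCD, the desaturase that makes oleate, disagreed. Its brightest gave 1987 in treated and 1486 in untreated cells and the second 1207 in treated and 1143 in untreated cells. The other 2 gave 702 and 488 in treated cells, against 988 and 697 in untreated cells. All 4 carry a suffix for possibly shared sequence, and the median log2 ratio over them was -0.21, opposite in sign to the brightest. FADS2, a desaturase of polyunsaturated fatty acids, had 97.4 in treated and 98.7 in untreated cells. FADS1, its partner, has 3 probe sets that also carry another symbol, and no value was taken from them.

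Of the synthetases that activate fatty acids to acyl-CoA, ACSL1 had signals of 2344 in treated and 1441 in untreated cells (1.63-fold higher), and 2117 in treated and 1309 in untreated cells on its second probe set, with log2 ratios of 0.70 and 0.69. ACSL4, which prefers arachidonate, had 653 in treated and 683 in untreated cells (1.05-fold lower), with a sign that turned under another scaling. ACSL3 was not analysed here.

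Other genes of the same pathways were counted from lists, to be set beside 3.77% of all measured genes at least 2-fold higher and 5.12% lower. Of 9 other measured sterol synthesis genes, 1 was at least 2-fold higher and 0 lower, with a median log2 ratio of 0.24. TM7SF2, a sterol reductase, had 954 in treated and 342 in untreated cells (2.79-fold higher). This value, like those of ERG28 and MYLIP given below, comes from a probe set whose suffix marks possibly shared sequence. ERG28, a scaffold of sterol enzymes in yeast, was 1.93-fold higher, and POR, which passes electrons to SQLE and CYP51A1, 1.68-fold higher. Of 15 measured genes of SREBP processing and sterol feedback, 3 were at least 2-fold higher and 0 lower, with a median of 0.32. They were PAQR3, a Golgi protein reported to anchor SCAP (255 in treated and 96.7 in untreated cells), NPC1, which exports cholesterol from lysosomes (2038 in treated and 829 in untreated cells), and MYLIP, a ubiquitin ligase for lipoprotein receptors (1849 in treated and 760 in untreated cells).

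The remaining fatty acid lists lay closer to the background, in which 3.77% of genes were at least 2-fold higher and 5.12% lower. Of 12 other measured genes of fatty acid synthesis and elongation, 1 was at least 2-fold higher and 0 lower, and the median log2 ratio was -0.04. It was HACD3, a dehydratase of the elongation cycle, with 1106 in treated and 525 in untreated cells (2.11-fold higher). Its single measured probe set, like those of ACSL5 and ECI2, carries a suffix for possibly shared sequence. ACSL5 was 1.94-fold lower and MECR, of mitochondrial fatty acid synthesis, 1.52-fold higher. Of 21 measured genes of fatty acid oxidation, 1 was at least 2-fold higher, ETFDH, which passes electrons from oxidation to ubiquinone (542 in treated and 267 in untreated cells), and 0 were lower, with a median of 0.10. HADHB and ECI2, enzymes of the oxidation cycle, had log2 ratios of 0.62 and 0.59.

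**Figure D4:**
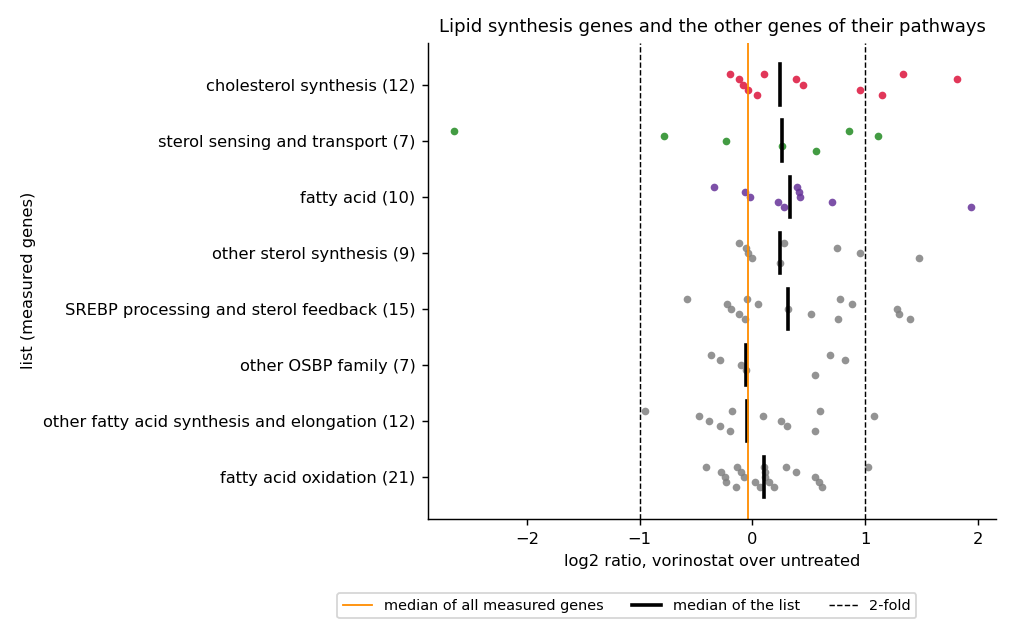
Each point is a measured gene placed by its log2 ratio, vorinostat over untreated, in the 3 roles (coloured) and 5 lists of other pathway genes (grey), with the number measured in brackets. Medians (black bars) lie between 0.24 and 0.34 for the 3 roles, other sterol synthesis and SREBP processing. For the remaining lists they lie between -0.06 and 0.10, beside -0.04 for all measured genes (orange line). Under some other settings the medians of cholesterol synthesis were 0.07 and 0.10 and that of sterol sensing and transport was 0.01. These fall within the range drawn for the remaining lists, but the 5 lists were not recomputed under those settings.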

How the data were processed

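Total RNA of 1 vorinostat-treated and 1 untreated L-540 culture was biotin-labelled and hybridised to HG_U133A arrays, as the labels' protocols state. The authors deposited MAS5 signal intensity values per probe set on a linear scale, per the submitters' processing notes. Version, scaling target and detection calls are not given in the sources used here. The scaling was kept. Of 22283 probe sets, 68 controls were left out, and 19065 carried 1 gene symbol in the platform annotation; Entrez identifiers looked up in RefSeq (GRCh38.p14) changed 0 symbols. Probe sets with several symbols (1043) or none (2107) named no gene. Signals were floored at the 40th percentile (68.9 units) before log2. Probe sets floored on both arrays were taken as not measured, and those floored on 1 array gave a bound. Each gene's brightest probe set by mean log2 signal stood for it. With 1 array a group no test was run, and the number of arrays limits the precision.

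The genes, roles, lists and settings were chosen with earlier results of these data known. All listed genes are accounted for, with values for each measured one. Of the other lists, the 3 with the largest ratios are named. Marker lists are given as counts and sums, with the measured markers named. Alternatives were 3 scalings, 3 treatments of low signals, the median over probe sets, leaving out probe sets with a shared-sequence suffix, and 2 thresholds. Motifs were searched by exact match. Steps were tested on simulated data and run in Python 3.11.15 with numpy 2.4.6, pandas 2.3.3 and statsmodels 0.14.6.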

Additional observations from a re-analysis of the deposited data

How the results depend on the processing

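No paired analysis was possible because each group holds 1 array. For the 29 measured genes, 8 of 219 log2 ratios under other settings differed from the reported one by more than 0.29, the SD of 1 probe set's ratio estimated from pairs of probe sets of the same gene. Many of the 219 could not differ. Another floor leaves the ratio of a brighter gene unchanged, as the probe set settings do for a gene kept with a single probe set. All 6 genes past 2-fold kept their sign under every setting of scaling, floor and probe set that gave a value, and HMGCS1, SCAP and ELOVL4 stayed past 2-fold in all 8. SQLE (0.64) and LSS (0.97) missed it with the median over probe sets, whereas OSBPL10 missed it only without shared-sequence probe sets (bounded at -0.24). Signs turned under a scaling for 5 genes, FDPS, NSDHL, HSD17B7, FADS2 and ACSL4, reported at log2 ratios between -0.12 and -0.02. EBP turned to -0.42 without shared-sequence probe sets and SCD to -0.21 with the median over probe sets. Scaling to equal medians moved the median log2 ratio of all measured genes by over 0.1, to 0.08, and that of the 29 to 0.40; 58.8% of all 2-fold calls were then higher, against 42.4% as deposited, and 6 of 29 lipid genes were higher and 1 lower.

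Without shared-sequence probe sets, 6 of 19 measured lipid genes were at least 2-fold higher and 0 lower. In sterol sensing and transport 2 were higher, SCAP and INSIG1, and 0 lower. Of all 5176 genes then measured, 219 were higher and 250 lower, against 312 and 424 of 8277 as reported. At 1.5-fold, 8 lipid genes were higher and 2 lower, of which sterol sensing and transport held 2 and 2 and fatty acid genes 2 higher; of all genes 1051 were higher and 1283 lower. At 3-fold, 2 lipid genes were higher, 1 of them in cholesterol synthesis and 0 in sterol sensing and transport. The 1 lipid gene lower at 3-fold was OSBPL10, of sterol sensing and transport. Of all genes 45 were higher and 77 lower. A floor at the 25th percentile gave 689 lower genes among all, with more genes measured, and one at the 60th percentile 251, with fewer.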
